A study of Homo sapiens with 12 samples.

Results

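Stromal-feeder cells called MS5-NC were compared with day-11 neuroepithelium called LSB over every measured gene, as MS5-NC minus LSB. The comparison takes the 3 arrays titled MS5-NC sorted and the 3 titled LSB unsorted, which are 6 of the 12 Illumina HT-12 bead arrays in the study. All 12 samples were derived from the human embryonic stem cell line H9. The LSB cells were differentiated to day 11, were labelled neuroepithelial and were not sorted. The MS5-NC cells were induced on feeder cells of the mouse stromal line MS5, reached day 35, were labelled neural crest, and were sorted as positive for both HNK1 and p75. HNK1 is a carbohydrate epitope and p75 is the receptor encoded by NGFR, and both are surface markers used to collect neural crest. Of the other 2 groups, NPC-NC passed the same HNK1 and p75 gate at day 18 after an induction without feeders, and sox10-NC was induced with Wnt from an H9 line carrying sox10::GFP and was sorted at day 11 for GFP. Induction, day and sorting differ together between MS5-NC and LSB, so their parts in any difference cannot be told apart. Each array measures a mixed population, in which more cells of a type and more RNA per cell cannot be told apart either.

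Neuroepithelium is the proliferating sheet of progenitors that forms the neural tube, and in the forebrain it gives rise to radial glia, to intermediate progenitors and then to neurons. Neural crest is the population that leaves the dorsal edge of the neural tube under factors such as SOX10, FOXD3 and the TFAP2 proteins, and it forms peripheral neurons, glia, pigment cells and the connective tissue of the face. Gene lists for both fates were counted, with lists for other cell types that such cultures can hold.

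Each of the 6 arrays detected 15604 to 16955 of 47322 probes. Levels below are background-corrected and quantile-normalised intensities on the log2 scale, given for replicates 1, 2 and 3 in that order. A difference is the fitted log2 change with its SE from limma's model of all 12 arrays, with 3 arrays a group and a two-sided moderated test. The labels call the arrays biological replicates without naming separate cultures, so the p-values measure the spread between these samples. Calls needed 3 things: an adjusted p (Benjamini-Hochberg) below 0.05, a difference of 2-fold or more, and detection on 2 or 3 arrays of whichever group was higher. Where a gene was detected on none of a group's arrays, its fold is a lower bound, with that group set at its arrays' detection floor.

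Of 11280 genes tested, 2358 (20.9%) were called, 1472 (13.0%) higher and 886 (7.85%) lower in MS5-NC. Large rises outnumbered large falls. At least 4-fold differences numbered 331 up and 86 down, and at least 8-fold differences 79 up and 20 down. In 274 of the called genes LSB was below background, and in 104 MS5-NC was. The levels of the 2 groups did not overlap for 5934 genes (52.6%), and 21 called genes did overlap. Rises made up 62.4% of calls after quantile normalisation and 33.6% of 2979 calls after scaling by the median, which moved the median change of all genes from 0.00 to -0.27. That scaling called 1002 genes higher and 1977 lower, each by at least 2-fold, so whether rises or falls are more numerous depends on the scaling. The part of the shift in these falls was not tested.

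**Figure D1:**
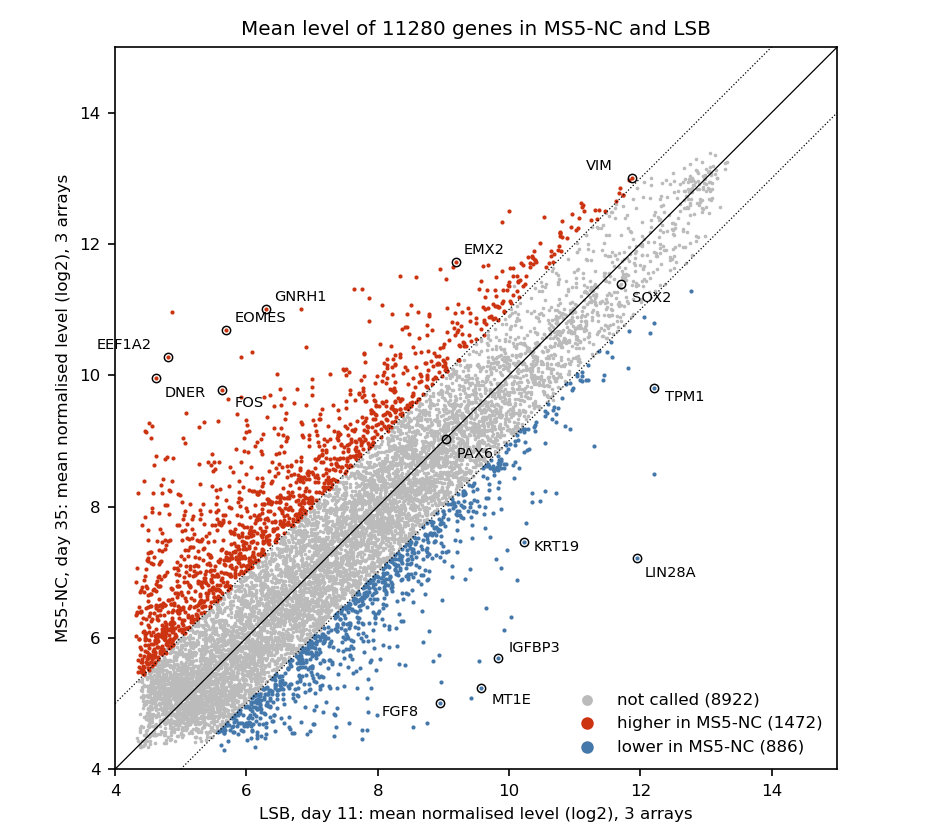
Mean normalised log2 level of each gene tested on the 3 LSB arrays (horizontal) and the 3 MS5-NC arrays (vertical), with the solid line at equality and dotted lines at 2-fold. Red points are the 1472 genes called higher and blue points the 886 called lower in MS5-NC, and grey points were not called. Circles mark VIM and genes described in the text, with EEF1A2 and DNER near the left edge and LIN28A, FGF8 and MT1E far below the line.

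The largest rises from a detected LSB level included EOMES, NACAD and STMN4. EOMES, a T-box factor of intermediate progenitors in the cortex, read 5.57, 5.67 and 5.85 in LSB and 10.48, 10.51 and 11.06 in MS5-NC. Every MS5-NC array lay above every LSB array, which was a condition of this ranking, and the difference was 4.99 ± 0.24 (adjusted p = 1.50e-10). NACAD, a protein of the nascent-chain-associated family, read 5.49, 6.17 and 6.60 in LSB and 10.26, 10.28 and 10.50 in MS5-NC, a difference of 4.26 ± 0.28. STMN4, a tubulin-binding stathmin of neurons, rose by 4.17 ± 0.38, and its level of 11.92 on MS5-NC replicate 3 stood above 10.39 and 10.69 on the others. MYT1, a zinc finger factor of the neuronal lineage, rose by 3.74 ± 0.41. ZFHX3, a homeobox factor of differentiating neurons, read 5.42, 5.44 and 5.86 in LSB and 9.20, 9.31 and 9.41 in MS5-NC, with a narrow range in each group (adjusted p = 3.36e-09). CLIP3, SPOCK2, MAP1LC3A and RFTN1 rose by 3.67 ± 0.32, 3.56 ± 0.35, 3.52 ± 0.27 and 3.40 ± 0.36. Here CLIP3 is a microtubule-linked protein, SPOCK2 a brain matrix proteoglycan, MAP1LC3A an autophagosome protein and RFTN1 a lipid raft protein.

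Genes detected on every MS5-NC array and on no LSB array included several neuronal proteins. EEF1A2, the translation elongation factor form of neurons and muscle, read 5.02, 4.40 and 4.98 in LSB and 10.27, 10.20 and 10.35 in MS5-NC, at least 33.3-fold higher in MS5-NC (adjusted p = 9.83e-09). DNER, a transmembrane protein of neuronal dendrites that can bind Notch, read 4.49, 4.61 and 4.76 in LSB and 9.77, 9.72 and 10.38 in MS5-NC, at least 26.8-fold higher. ISLR2, a leucine-rich repeat protein of growing axons, was at least 15.4-fold higher. In all 3 genes the MS5-NC arrays lay far above the LSB arrays and close to one another, with replicate 3 the highest. SNAP91, a clathrin adaptor of synaptic vesicle recycling, was at least 11.6-fold higher. AMER2, which binds the APC protein, was at least 11.5-fold higher, and KIF21B, a neuronal kinesin, at least 11.4-fold higher. CCNO, a cyclin of multiciliated cell formation, read 4.76, 4.47 and 4.94 in LSB and 7.86, 9.13 and 8.27 in MS5-NC, at least 9.23-fold higher. CCNO was uneven in NPC-NC, at 7.63 ± 1.79 (SD, n = 3).

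The 48 gene lists were chosen with earlier results of these data known. Of their 540 tested genes 42.6% were called, against 20.9% of all genes, so a share above that of all genes is usual among the lists. Of the 48 lists, that of the neuronal cytoskeleton had the largest share of members called higher. Of its 21 measured members, 16 were called higher and none lower, with a median change of 2.44 against 0.00 over all genes tested. MAPT, the axonal protein tau, read 4.65, 4.39 and 4.50 in LSB and 8.77, 9.32 and 9.74 in MS5-NC, and its fold was at least 16.7 (adjusted p = 1.75e-09). A second MAPT probe gave a change of only 0.40. DCX, the doublecortin of migrating neurons, read 7.30, 7.75 and 8.21 in LSB and 11.21, 11.12 and 11.62 in MS5-NC. DCLK1, its kinase relative, rose by 3.27 ± 0.29, and GAP43, a growth cone protein, by 3.15 ± 0.29. Every one of these genes kept the MS5-NC and LSB arrays apart, as did all but 21 of the 2358 called genes.

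Regulators of neuronal identity and the release machinery of synapses followed. Among 13 measured RNA-binding proteins and transcription factors of neurons, 8 were called higher and none lower (median 1.36), or 4 higher without background correction. INSM1, a zinc finger factor of newborn neurons and endocrine cells, read 5.08, 5.43 and 4.73 in LSB and 9.13, 9.34 and 9.79 in MS5-NC, a difference of 4.34 ± 0.37 (adjusted p = 1.50e-07). ELAVL3, a neuronal RNA-binding protein, rose by 3.92 ± 0.44 and POU3F2, a POU factor of cortical neurons, by 2.81 ± 0.32. Of 16 measured genes of synaptic vesicle release, 10 were called higher and none lower (median 1.45). BSN, the active-zone scaffold bassoon, read 4.49, 4.43 and 4.59 in LSB and 7.64, 7.62 and 7.69 in MS5-NC, at least 5.41-fold higher. SNAP25, of the vesicle fusion complex, read 4.94, 5.21 and 5.26 in LSB and 7.57, 7.98 and 8.55 in MS5-NC, and VAMP2, its partner on the vesicle, rose by 2.50 ± 0.27. In LSB, VAMP2 was detected on 3 arrays, SNAP25 on 1 and BSN on none.

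Ion channel, axon guidance and adhesion genes were counted next. Of 10 measured ion channels and receptors 5 were called higher and none lower, with a median of 0.93, or 0.23 with genes below background at their bounds, and 2 were called without background correction. SCN3B, a sodium channel subunit, was at least 3.59-fold higher, and GRIA2, a glutamate receptor subunit, at least 3.17-fold. Of 21 measured axon guidance genes 10 were called higher and none lower (median 0.97), or 6 higher without background correction. EPHA3, an ephrin receptor, read 4.55, 4.45 and 4.45 in LSB and 7.40, 7.17 and 6.97 in MS5-NC, at least 3.91-fold higher. SLIT2, a secreted repellent, rose by 2.40 ± 0.23, and NRP1, a semaphorin receptor, was at least 4.61-fold higher. Of 11 measured neural adhesion genes 6 were called higher and 1 lower, or 4 and 0 without background correction. NCAM1 rose by 2.87 ± 0.32, ASTN1, which guides neurons along glia, by 2.82 ± 0.25, and NRXN2, a presynaptic neurexin, by 2.35 ± 0.22. The lower gene was ALCAM at -1.02 ± 0.25, just past 2-fold, and it was no longer called without LSB replicate 1 or MS5-NC replicate 3 (-0.97 and -0.85).

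**Figure D2:**
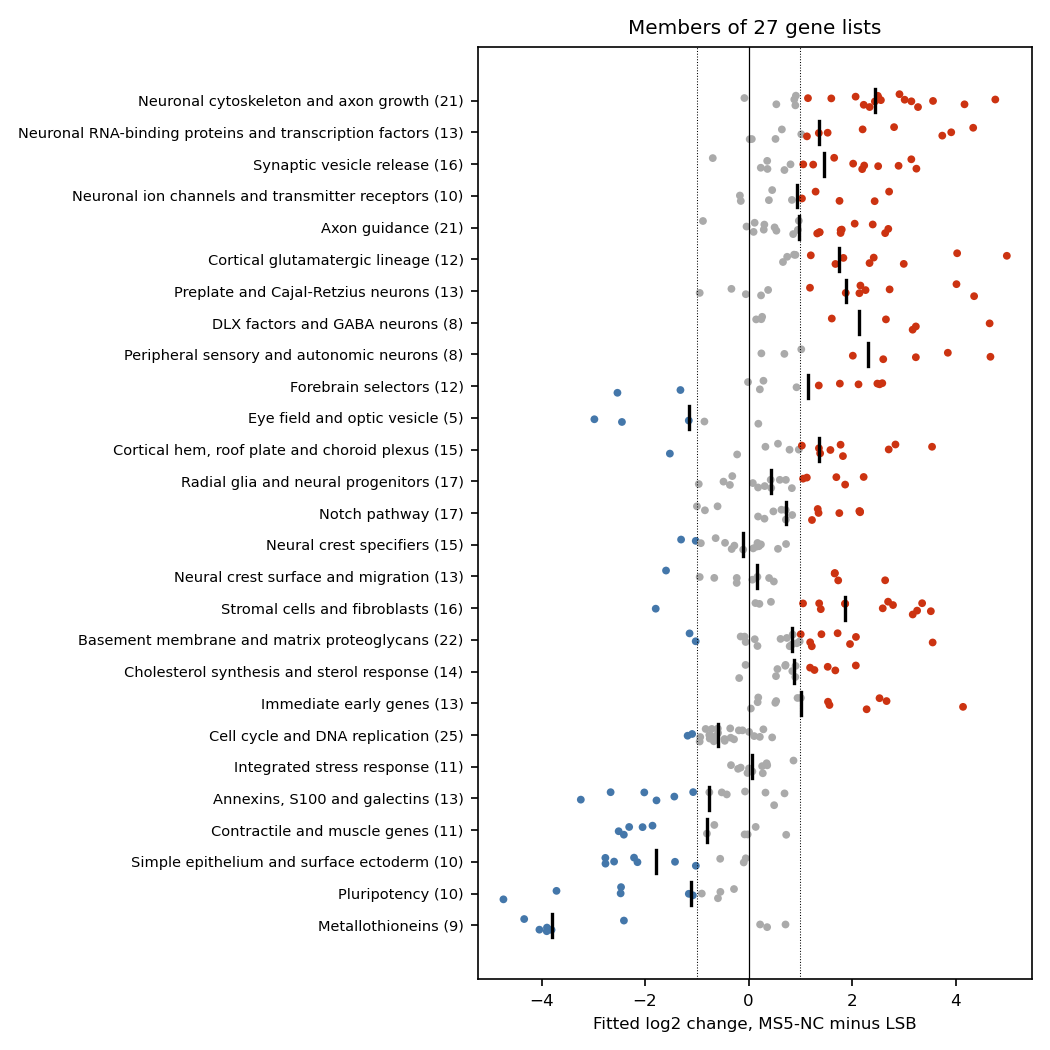
Fitted log2 change, MS5-NC minus LSB, of every measured member (points) of the gene lists, with the number of measured members in brackets and the list's median as a black bar. Red and blue points were called higher and lower, grey points were not called, and dotted lines mark 2-fold. Neuronal lists at the top lie to the right, and metallothioneins, pluripotency and epithelial genes at the bottom lie to the left.

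Markers of several neuron types rose side by side. Of 12 measured genes of the cortical glutamatergic lineage 8 were called higher and none lower (median 1.76, or 1.26 at bounds). SLC17A6, a vesicular glutamate transporter, read 4.69, 4.56 and 4.54 in LSB and 8.55, 7.87 and 9.46 in MS5-NC, at least 10.7-fold higher. SLC17A7, the transporter typical of cortical neurons, read 4.50, 4.54 and 4.44 in LSB and 7.37, 7.21 and 7.90 in MS5-NC, at least 4.86-fold higher. FEZF2, a factor of deep-layer projection neurons, rose by 2.42 ± 0.23. Of 13 measured preplate and Cajal-Retzius genes 8 were called higher and none lower (median 1.88), or 4 higher with a median of 0.89 without background correction. RELN, the secreted guidance protein of Cajal-Retzius cells, read 4.46, 5.56 and 5.06 in LSB and 9.28, 8.56 and 9.29 in MS5-NC, a difference of 4.02 ± 0.31 (adjusted p = 5.56e-08). NHLH2, a helix-loop-helix factor of early neurons, rose by 2.26 ± 0.48, and EBF3, an early B-cell factor relative in Cajal-Retzius cells, by 2.73 ± 0.69.

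Of 8 measured DLX factors and GABA neuron genes 5 were called higher and none lower. Another 10 of the list's 18 genes were not tested. Among these, DLX2, DLX6, LHX6, LHX8, NKX2-1, GSX1 and GSX2 had probes but were detected on no array. DLX1, a homeobox factor of the ventral forebrain, read 4.39, 4.67 and 4.37 in LSB and 9.26, 8.82 and 9.33 in MS5-NC, at least 15.1-fold higher, while a second probe gave a change of 1.68. GAD1, which makes GABA, rose by 3.17 ± 0.35, and SLC32A1, which loads it into vesicles, rose by 2.65 ± 0.37. The other detected GAD1 probes gave -0.14 to 0.55, so its rise rests on the probe with the highest level. The count was 4 without any 1 of the 6 arrays.

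GNRH1, the gonadotropin-releasing hormone of the hypothalamus, read 6.34, 6.53 and 6.03 in LSB and 10.74, 10.83 and 11.47 in MS5-NC, a difference of 4.71 ± 0.27 (adjusted p = 1.43e-09). It was the 1 member called higher of 6 measured genes of GnRH neurons and cranial placode, of which 2 were called lower (median -0.74), or 1 without background correction. TRH, the thyrotropin-releasing hormone, read 4.58, 4.63 and 4.43 in LSB and 8.66, 8.73 and 9.74 in MS5-NC, at least 14.2-fold higher. Both hormones were highest on MS5-NC replicate 3. TH, which makes the precursor of dopamine and noradrenaline, was at least 16.1-fold higher, and a second TH probe gave a change of 4.60. PRPH, an intermediate filament typical of peripheral neurons, read 4.33, 4.34 and 4.39 in LSB and 7.41, 8.18 and 9.02 in MS5-NC, at least 7.94-fold higher. Of 8 measured peripheral neuron genes 5 were called higher and none lower, among them ISL1, a LIM homeobox factor, by 3.23 ± 0.43, and CHGB, a granule protein, by 2.60 ± 0.45. The list holds genes that brain neurons also express, TH and ISL1 among them. Of its 24 genes 16 were not tested. Among these, TLX3, NTRK3, HAND1, HAND2, GATA2 and SLC18A2 had probes but were detected on no array, and PHOX2A and GATA3 were detected on 1 each.

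PAX6 and OTX2 were not called, and most other called forebrain selectors were higher. PAX6, a paired-box factor of the cortex and eye, read 9.04, 8.97 and 9.11 in LSB and 9.12, 9.10 and 8.87 in MS5-NC. OTX2, of the forebrain and midbrain, read 9.94, 9.93 and 10.08 in LSB and 10.54, 9.94 and 10.34 in MS5-NC. The groups overlapped in both, and the differences were -0.01 ± 0.28 and 0.29 ± 0.24 (adjusted p = 0.982 and 0.359). EMX2, a homeobox factor of the dorsal cortex, read 9.26, 9.07 and 9.22 in LSB and 11.75, 11.56 and 11.84 in MS5-NC, a difference of 2.53 ± 0.22 (adjusted p = 2.26e-07), and a second probe gave 2.40. LHX2, which specifies cortex against hem, rose by 1.36 ± 0.25. NR2F1, a nuclear receptor of caudal cortex, rose by 2.58 ± 0.52, and DMRTA2, a transcription factor of the developing cortex, by 2.49 ± 0.33. Over the 12 measured forebrain selectors, 6 were called higher and 2 lower, or 1 lower without any 1 LSB array. LHX2 was not called under median scaling. OTX1 rose by 2.12 ± 0.41, with 5.87 on MS5-NC replicate 1 against 8.13 and 7.34, and by 2.75 without that array.

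Of 5 measured eye field genes 3 were called lower and none higher. SIX6, a homeobox factor of the retina, read 7.86, 7.86 and 7.83 in LSB and 5.78, 4.55 and 4.28 in MS5-NC, a difference of -2.98 ± 0.32 (adjusted p = 2.02e-06). RAX, the retinal homeobox factor, read 8.32, 7.16 and 7.57 in LSB and 5.31, 4.94 and 5.46 in MS5-NC, a difference of -2.45 ± 0.28. The third was ALDH1A3, a retinoic acid synthesis enzyme, called at -1.15 ± 0.38, and not without LSB replicate 1 (-0.88), MS5-NC replicate 2 (-0.86) or MS5-NC replicate 3 (-0.86). Outside that list, HESX1 and FEZF1 were the 2 forebrain selectors called lower, and FGF8 was a member of the FGF and placode lists. HESX1, a repressor of the anterior neural plate and pituitary, read 7.30, 7.45 and 7.32 in LSB and 5.16, 4.63 and 4.67 in MS5-NC, at least 4.54-fold lower in MS5-NC. No MS5-NC array detected HESX1, and without any 1 LSB array it was no longer tested. FGF8, the ligand of the anterior neural ridge, read 8.79, 9.02 and 9.05 in LSB and 6.31, 4.27 and 4.43 in MS5-NC, a difference of -3.95 ± 0.56 (adjusted p = 3.55e-05), or -4.60 without MS5-NC replicate 1. FEZF1, a forebrain repressor, read 7.11, 7.79 and 7.69 in LSB and 6.59, 6.21 and 5.82 in MS5-NC and was called at -1.32 ± 0.29, but not without background correction.

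Dorsal midline and radial glia genes rose in part. Of 15 measured genes of the cortical hem, roof plate and choroid plexus 9 were called higher and 1 lower. ZIC4, of the zinc finger family active in the dorsal neural tube, read 5.83, 6.57 and 7.01 in LSB and 10.15, 10.18 and 9.71 in MS5-NC, a difference of 3.54 ± 0.30. RSPO3, which amplifies Wnt signals, rose by 2.84 ± 0.27, and RSPO1, of the same family, was at least 4.01-fold higher. TTR, the thyroxine carrier of the choroid plexus, read 4.37, 4.52 and 4.64 in LSB and 4.53, 6.86 and 6.89 in MS5-NC, so that its call rests on MS5-NC replicates 2 and 3. The fitted change of 1.58, with LSB below background, was 2.36 without replicate 1, and the gene was no longer tested without replicate 2 or 3. Of 17 measured radial glia genes 5 (29.4%) were called higher and none lower (median 0.44), where 13.0% of all genes were called higher and 7.85% lower. When 1 array was left out, 4 to 6 were called higher and at most 1 lower. SOX9, a factor of radial glia and of crest, read 7.35, 6.89 and 7.71 in LSB and 9.99, 9.21 and 9.42 in MS5-NC, and SOX3, a progenitor factor, rose by 1.87 ± 0.28. SOX2, the general neural progenitor factor, read 11.85, 11.73 and 11.56 in LSB and 11.72, 11.04 and 11.44 in MS5-NC, with a difference of -0.31 ± 0.25 that did not pass (adjusted p = 0.34), and it was called lower under median scaling, at -1.01. Under that scaling the radial glia list had 3 members called higher and 2 lower, with a median of 0.06. Of 17 measured Notch pathway genes 7 were called higher and none lower, or 4 higher without background correction. The receptors NOTCH1 and NOTCH3 rose by 2.14 ± 0.30 and 2.15 ± 0.26, the ligand DLL3 by 1.75 ± 0.32, and HES6, a helix-loop-helix protein that favours neuronal differentiation, by 2.15 ± 0.28.

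No gene that defines the neural crest label of MS5-NC was called higher. SOX10 read 4.54, 4.38 and 4.67 in LSB and 4.58, 4.32 and 4.38 in MS5-NC, and FOXD3 read 4.37, 4.35 and 4.31 in LSB and 4.41, 4.40 and 4.49 in MS5-NC. No LSB or MS5-NC array detected SOX10, FOXD3 or TFAP2B, so no fold is given for them. TFAP2A, an activator of crest genes, read 4.86, 5.73 and 6.10 in LSB and 5.46, 4.65 and 5.61 in MS5-NC, a difference of -0.33 ± 0.37 (adjusted p = 0.512). Of 15 measured crest specifiers none was called higher and 2 lower. These were PAX7, a paired-box factor, at -1.30 ± 0.32, and ID2, a helix-loop-helix inhibitor, at -1.02 ± 0.36. PAX7 was no longer called without background correction, and ID2 was lost without any 1 array other than MS5-NC replicate 2, with values from -1.06 without LSB replicate 1 to -0.82 without MS5-NC replicate 1. Against sox10-NC, where 1214 genes (10.8%) were called higher and 741 (6.57%) lower in MS5-NC, 12 of the 15 specifiers were called lower and none higher. The sox10-NC cells were sorted on SOX10 itself, so that gene's difference is set by the sort.

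No measured gene behind the HNK1 and p75 gate was called. NGFR, whose product is p75, read 4.51, 4.96 and 5.16 in LSB and 4.69, 4.71 and 4.54 in MS5-NC. It was detected on 1 LSB array and on no MS5-NC array, with a difference of -0.23 ± 0.28 (adjusted p = 0.553). Enzymes that build HNK1 were not called, with B3GAT1 at 0.49 ± 0.26 (adjusted p = 0.151) and CHST10 at 0.07 ± 0.32 (adjusted p = 0.879). The sort reads surface protein and carbohydrate, which these arrays do not measure. Of 13 measured genes of crest surface and migration 4 were called higher and 1 lower, which is 38.5% called against 20.9% of all genes. The median of 0.17 turned to -0.13 under median scaling. EDNRB, the endothelin receptor, rose by 1.66 ± 0.26, CDH6, a cadherin of the neural fold, by 1.67 ± 0.23, and GFRA1, a receptor for GDNF, by 1.73 ± 0.37. All 3 stood higher in sox10-NC, at 10.45 ± 0.32, 11.75 ± 0.13 and 9.60 ± 0.45, against 8.77 ± 0.49, 8.18 ± 0.22 and 7.13 ± 0.34 in MS5-NC (mean ± SD, n = 3). Other probes of these genes changed by 0.68 or less, and with probes averaged 1 member of the list was called higher. CDH11, a cadherin of mesenchyme, fell, at -1.59 ± 0.36.

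**Figure D3:**
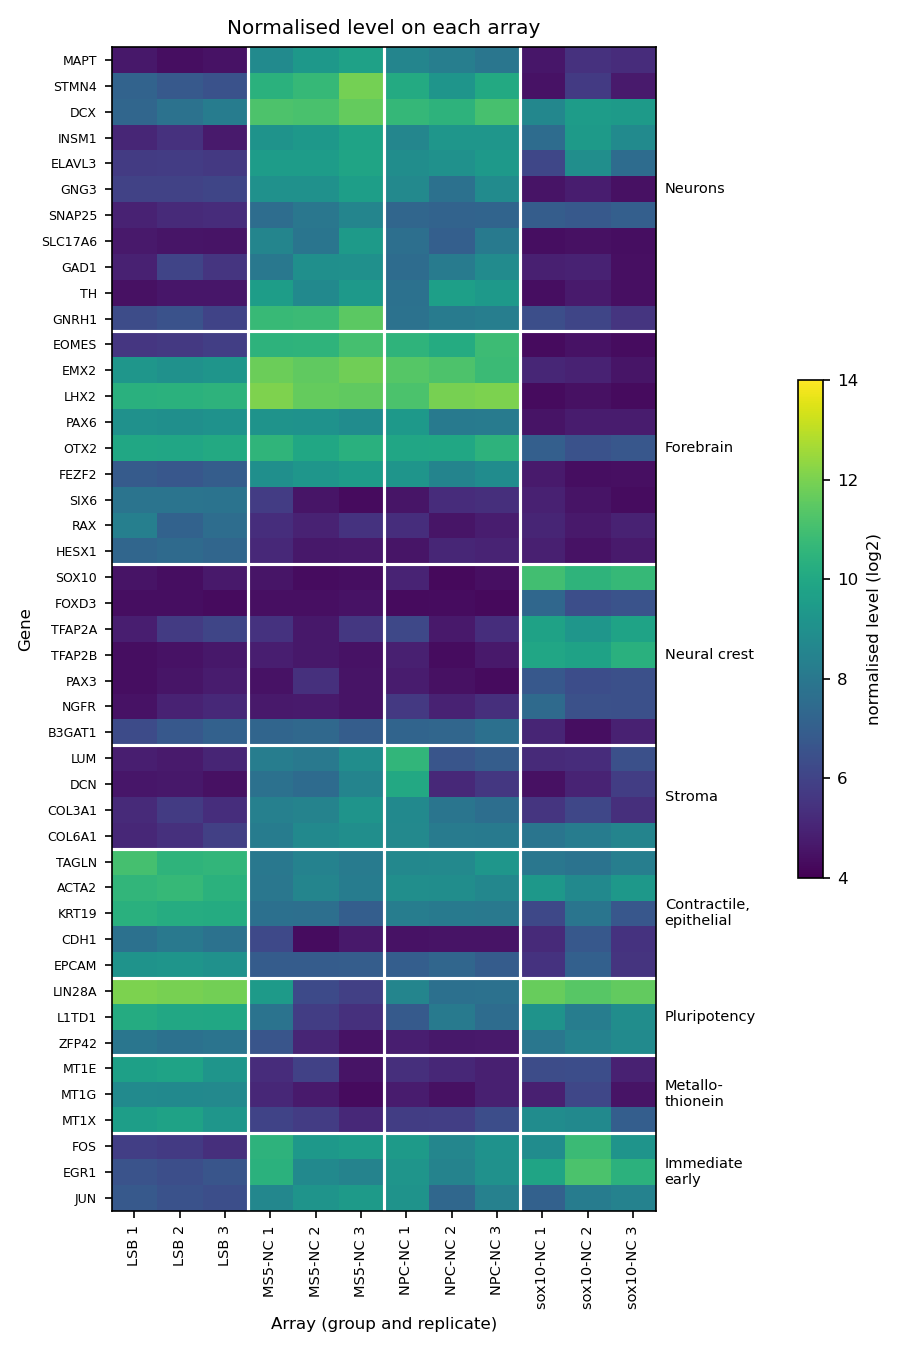
Normalised log2 level (colour scale) of genes named in the text and of PAX3 (rows, by role) on all 12 arrays (columns, by group and replicate). Neuronal and stromal rows are brighter in MS5-NC than in LSB, SOX10, FOXD3 and TFAP2B are detected in sox10-NC alone of the 4 groups, and LIN28A, L1TD1 and ZFP42 are brighter on MS5-NC replicate 1 than on replicates 2 and 3.

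Connective tissue genes rose together. Of 16 measured genes of stromal cells and fibroblasts 12 were called higher and 1 lower, with a median of 1.87. Without background correction 8 were called higher and 1 lower (median 1.11). LUM, a collagen-binding proteoglycan, read 4.83, 4.74 and 5.04 in LSB and 8.25, 8.03 and 8.90 in MS5-NC, at least 9.05-fold higher in MS5-NC (adjusted p = 5.18e-04). DCN, the proteoglycan decorin, read 4.59, 4.65 and 4.46 in LSB and 7.74, 7.49 and 8.53 in MS5-NC, at least 6.52-fold higher (adjusted p = 0.00299). A second DCN probe gave a change of 0.93, below 2-fold. COL3A1, a fibrillar collagen, rose by 3.26 ± 0.31 and COL6A1, of the filaments around cells, by 3.17 ± 0.27. LSB and MS5-NC arrays did not overlap in any of these genes, which holds for all but 21 of the 2358 called genes. The lower member was S100A4, a calcium-binding protein of motile cells, at -1.79 ± 0.34. In sum, the list's intensity was 1419 to 1776 on LSB arrays and 4894 to 6068 on MS5-NC arrays.

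MS5 is itself a stromal line, and the part of feeder RNA in these levels was not tested. The feeder-free NPC-NC arrays read 10.58, 6.63 and 6.94 for LUM and 10.04, 5.16 and 5.62 for DCN. Thus NPC-NC replicate 1 stood above all MS5-NC arrays in both genes, and replicates 2 and 3 below them. The list summed to 9219, 3330 and 4003 in NPC-NC, and to 6406.2, 4844.5 and 7297.7 in sox10-NC, above every LSB array in both groups. Against sox10-NC, 4 of the list's 16 measured members were called higher and 3 lower in MS5-NC (median 0.20). Over all genes 10.8% were called higher and 6.57% lower in that comparison. None of the list's members was called between MS5-NC and NPC-NC, but only 0.0798% of all genes were, so this count tells little of the list. Of the list's 20 genes, FBN1, FN1 and MMP2 were detected on no array, while COL1A1, COL1A2, COL3A1, DCN, LUM and PDGFRB were among those detected on all MS5-NC arrays.

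Basement membrane and matrix proteoglycan genes rose in part, with 8 of 22 measured members called higher and 2 lower (median 0.84). That is 45.5% called, against 20.9% of all genes. The counts were 5 and 2 under median scaling, or 5 and 0 without background correction. AGRN, the proteoglycan agrin, read 7.39, 7.20 and 7.62 in LSB and 9.19, 9.62 and 9.63 in MS5-NC. COL4A6 and COL18A1, of basement membranes, rose by 1.96 ± 0.24 and 1.72 ± 0.28. A second COL4A6 probe gave a change of only 0.24, so its rise rests on the probe with the highest level.

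The largest fitted fall among called genes was that of LIN28A, an RNA-binding protein that blocks let-7 maturation in stem cells. It read 12.02, 11.94 and 11.88 in LSB and 9.46, 6.26 and 5.91 in MS5-NC, a difference of -4.74 ± 0.58 (adjusted p = 7.58e-06). MS5-NC replicate 1 lay between the LSB arrays and the other MS5-NC arrays, and the difference was -5.86 without it and -4.09 without replicate 3. L1TD1, a partner of LIN28A in stem cells, read 10.14, 9.99 and 9.97 in LSB and 7.80, 5.80 and 5.37 in MS5-NC, a difference of -3.71 ± 0.46, or -4.45 without MS5-NC replicate 1. ZFP42, a zinc finger marker of pluripotent cells, read 7.94, 7.75 and 7.86 in LSB and 6.63, 5.02 and 4.49 in MS5-NC, a difference of -2.47 ± 0.38, or -3.10 without that array. SNAR-A1, a small noncoding RNA, read 12.28, 12.50 and 11.82 in LSB and 9.78, 7.86 and 7.85 in MS5-NC, a difference of -3.70 ± 0.43, or -4.35 without it. The same array stood highest of the MS5-NC group in all of these.

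Of 10 measured pluripotency genes 6 were called lower and none higher (median -1.12), and 8 were called lower without MS5-NC replicate 1. The list's summed intensity was 9375 to 9838 in LSB, 4323 on MS5-NC replicate 1, and 2028 and 2155 on replicates 2 and 3. Whether undifferentiated cells had a part in it was not tested. POU5F1 and NANOG were detected on none of the 12 arrays, while LIN28A, L1TD1, DPPA4, DNMT3B and SALL4 were detected on all 12. LIN28B, the close relative of LIN28A, fell less, at -1.15 ± 0.22, and TRIM71, another heterochronic regulator, fell at -1.96 ± 0.28. Both stayed detected in MS5-NC, with TRIM71 on 2 of 3 arrays.

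Of 10 measured genes of simple epithelium and surface ectoderm 7 were called lower and none higher (median -1.78), and 4 were called lower without LSB replicate 3 or without background correction. KRT19, an epithelial keratin, read 10.33, 10.18 and 10.15 in LSB and 7.71, 7.67 and 6.99 in MS5-NC, a difference of -2.77 ± 0.33 (adjusted p = 4.99e-06). CDH1, the epithelial cadherin, read 7.72, 8.05 and 7.76 in LSB and 6.21, 4.34 and 4.68 in MS5-NC, and KRT8 fell, at -2.60 ± 0.38. EPCAM, an epithelial adhesion molecule, read 9.13, 9.23 and 9.04 in LSB and 6.90, 6.93 and 6.94 in MS5-NC, with the MS5-NC arrays close to one another. Outside the list, RAB25, a trafficking protein of epithelia, was at least 4.49-fold lower, and DMKN, a secreted skin protein, fell at -2.83 ± 0.27.

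Of 11 measured contractile and muscle genes 5 were called lower and none higher. TAGLN, an actin-binding protein of smooth muscle, fell from a mean of 10.72 ± 0.30 in LSB to 8.21 ± 0.22 in MS5-NC (SD, n = 3), a difference of -2.51 ± 0.24. ACTA2, smooth muscle actin, read 10.56, 10.70 and 10.38 in LSB and 7.98, 8.55 and 8.20 in MS5-NC, and TPM1, a tropomyosin, fell at -2.41 ± 0.28, though another TPM1 probe gave 0.19. Of 13 measured annexin, S100 and galectin genes 6 were called lower and none higher, or 3 lower without background correction. ANXA1, a membrane-binding annexin, read 10.10, 10.27 and 10.01 in LSB and 7.51, 6.51 and 6.63 in MS5-NC, a difference of -3.24 ± 0.31, and ANXA3 fell at -2.66 ± 0.22. In each of these lists the LSB level was the higher one on every array for the genes named, and nearly all called genes were separate in this way.

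Several falls lay outside these lists. IGFBP3, a binding protein for insulin-like growth factors, read 9.74, 9.46 and 10.32 in LSB and 5.45, 5.87 and 5.74 in MS5-NC, a difference of -4.15 ± 0.29 (adjusted p = 2.18e-08), and a second probe gave -4.05. RPL29, a ribosomal protein, fell, at -2.82 ± 0.22, and a second probe gave -3.24. Both genes had LSB and MS5-NC arrays far apart. TFPI, an inhibitor of coagulation, fell at -2.64 ± 0.48, STOM, a membrane protein, at -2.67 ± 0.33, and MGST1, a glutathione transferase, at -3.21 ± 0.39, or -3.82 without MS5-NC replicate 1. PRRX2, a homeobox factor of mesenchyme, read 7.41, 7.90 and 8.21 in LSB and 4.83, 4.42 and 4.54 in MS5-NC, at least 6.35-fold lower. Genes detected on all LSB arrays and no MS5-NC array also included KCNK12, a potassium channel, at least 6.01-fold lower, KCNJ13, a potassium channel of retinal pigment epithelium, at least 4.47-fold lower, and FOLR1, a folate receptor, at least 3.97-fold lower. ERP27, of the endoplasmic reticulum, was at least 6.03-fold lower. Without any 1 LSB array KCNK12, KCNJ13 and ERP27 were no longer tested.

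Metallothioneins, small cysteine-rich proteins that bind zinc and copper, had the lowest median change of the 48 lists. Of 9 measured members 6 were called lower and none higher, with a median change of -3.81, or -3.37 at bounds, and the summed intensity was 3495 to 4118 on LSB arrays and 237 to 401 on MS5-NC arrays. MT1E read 9.69, 9.80 and 9.23 in LSB and 5.26, 5.94 and 4.51 in MS5-NC, a difference of -4.33 ± 0.37 (adjusted p = 1.53e-07). MT1X read 9.61, 9.76 and 9.26 in LSB and 6.02, 5.79 and 5.13 in MS5-NC, and MT1F fell at -3.81 ± 0.29. MT1G read 8.78, 8.76 and 8.70 in LSB and 5.12, 4.72 and 4.29 in MS5-NC, at least 11.9-fold lower, and MT1H read 8.40, 8.71 and 8.52 in LSB and 4.82, 4.61 and 4.51 in MS5-NC, at least 10.4-fold lower. Every LSB array lay above every MS5-NC array in all 6 genes, and the arrays were separate in all but 21 of the 2358 called genes. MT2A, the widely expressed member, kept a detected level, at 9.03, 8.81 and 9.09 in LSB and 6.21, 7.10 and 6.40 in MS5-NC, a difference of -2.41 ± 0.32 (adjusted p = 1.68e-05). The MT1 genes are near-identical copies in 1 cluster on chromosome 16, so a probe may read several of them and the genes are not independent. The other 3 measured members were not called. They were MTF1, the zinc-sensing factor that switches metallothioneins on, at 0.22 ± 0.25, the zinc exporter SLC30A1 at 0.36 ± 0.28, and MT3, the brain metallothionein, at 0.71 ± 0.25. The list summed to 286, 362 and 355 in NPC-NC and to 828, 881 and 354 in sox10-NC, below every LSB array. Without any 1 LSB array MT1H was no longer tested and 5 were called.

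RefSeq promoters, from 250 bases before to 50 bases after the gene's start, were available for 3 of the 6 lowered metallothioneins and are shown because metal response elements in this stretch are how zinc is known to act on these genes. The core searched was TGCACNC or TGCGCNC on both strands, and capitals mark its matches, none of which overlap. MT2A at chr16:56608334-56608633 (GRCh38.p14, plus strand), MT1H at chr16:56669564-56669863 (plus strand) and MT1X at chr16:56682220-56682519 (plus strand) held 8, 8 and 4 matches.
MT2A: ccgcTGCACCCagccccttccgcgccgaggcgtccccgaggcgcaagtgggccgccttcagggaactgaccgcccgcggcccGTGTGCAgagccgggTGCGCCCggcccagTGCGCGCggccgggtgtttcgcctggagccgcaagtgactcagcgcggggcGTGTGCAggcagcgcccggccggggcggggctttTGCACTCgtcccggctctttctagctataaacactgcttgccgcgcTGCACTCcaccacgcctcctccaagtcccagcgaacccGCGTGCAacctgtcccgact
MT1H: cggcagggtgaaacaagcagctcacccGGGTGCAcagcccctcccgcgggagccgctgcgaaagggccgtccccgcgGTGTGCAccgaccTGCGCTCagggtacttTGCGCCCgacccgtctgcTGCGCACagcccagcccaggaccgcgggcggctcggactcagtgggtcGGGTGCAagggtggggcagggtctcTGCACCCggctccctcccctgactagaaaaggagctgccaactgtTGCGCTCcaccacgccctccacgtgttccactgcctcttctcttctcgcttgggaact
MT1X: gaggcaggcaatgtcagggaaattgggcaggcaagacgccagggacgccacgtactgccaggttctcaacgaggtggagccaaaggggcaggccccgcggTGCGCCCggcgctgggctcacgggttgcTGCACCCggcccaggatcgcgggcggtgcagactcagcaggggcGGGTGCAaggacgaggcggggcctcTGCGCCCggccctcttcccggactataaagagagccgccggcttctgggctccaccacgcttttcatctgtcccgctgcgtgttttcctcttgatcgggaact
At least 1 match lay in 29.6% of all 35116 RefSeq promoters of this length and at least 3 matches in 2.30%. A match is a string of letters and was not tested for binding. MT2A and MT1H thus held more matches than MT1X.

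Immediate early genes, which cells switch on within minutes of a stimulus, were higher where called. Of 13 measured members 6 were called higher and none lower (median 1.01). FOS, a subunit of the AP-1 factor, read 5.85, 5.69 and 5.35 in LSB and 10.46, 9.35 and 9.51 in MS5-NC, a difference of 4.14 ± 0.41 (adjusted p = 7.53e-07). JUN, its partner, read 6.78, 6.50 and 6.40 in LSB and 8.63, 9.18 and 9.47 in MS5-NC. EGR1, a zinc finger factor, read 6.57, 6.41 and 6.62 in LSB and 10.37, 8.75 and 8.47 in MS5-NC, a difference of 2.67 ± 0.40, or 2.08 without MS5-NC replicate 1. That array was the highest in FOS and EGR1 and the lowest of its group in JUN. KLF6, a zinc finger factor, rose by 2.28 ± 0.35, DUSP1, a phosphatase of MAP kinases, by 1.56 ± 0.30, and JUND, a Jun protein, by 1.53 ± 0.27. The 7 members not called included CCN1, ATF3 and IER2, and no gene of the 11 measured in the integrated stress response was called in either direction. The sorted NPC-NC and sox10-NC arrays read FOS at 9.06 ± 0.44 and 9.62 ± 1.06 (SD, n = 3), while LSB was the only unsorted group. Sorting and culture therefore cannot be told apart here.

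The promoters of EGR1 and DUSP1 are shown for the elements through which serum and cAMP act on such genes. Capitals mark the CArG box in EGR1 at chr5:138465229-138465528 (GRCh38.p14, plus strand) and the cAMP response element TGACGTCA in DUSP1 at chr5:172771146-172771445 (minus strand), both searched on both strands without overlap.
EGR1: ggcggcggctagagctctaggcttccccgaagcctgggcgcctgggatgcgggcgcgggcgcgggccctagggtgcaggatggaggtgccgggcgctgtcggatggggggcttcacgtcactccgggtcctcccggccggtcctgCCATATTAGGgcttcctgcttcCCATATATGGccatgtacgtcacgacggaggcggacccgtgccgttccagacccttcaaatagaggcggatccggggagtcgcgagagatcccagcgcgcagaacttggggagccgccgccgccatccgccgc
DUSP1: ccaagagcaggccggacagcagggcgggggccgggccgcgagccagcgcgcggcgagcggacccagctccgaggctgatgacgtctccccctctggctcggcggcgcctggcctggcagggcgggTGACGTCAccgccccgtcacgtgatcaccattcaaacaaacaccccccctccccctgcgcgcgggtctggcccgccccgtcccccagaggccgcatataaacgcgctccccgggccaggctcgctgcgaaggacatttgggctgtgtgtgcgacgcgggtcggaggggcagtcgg
EGR1 held 2 CArG boxes, which 1.29% of the RefSeq promoters of this length hold at least once, and DUSP1 and JUND held 1 cAMP response element each, found in 1.85%. FOS, JUN and KLF6 held neither string in this window, which says nothing of more distant sites.

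**Figure D4:**
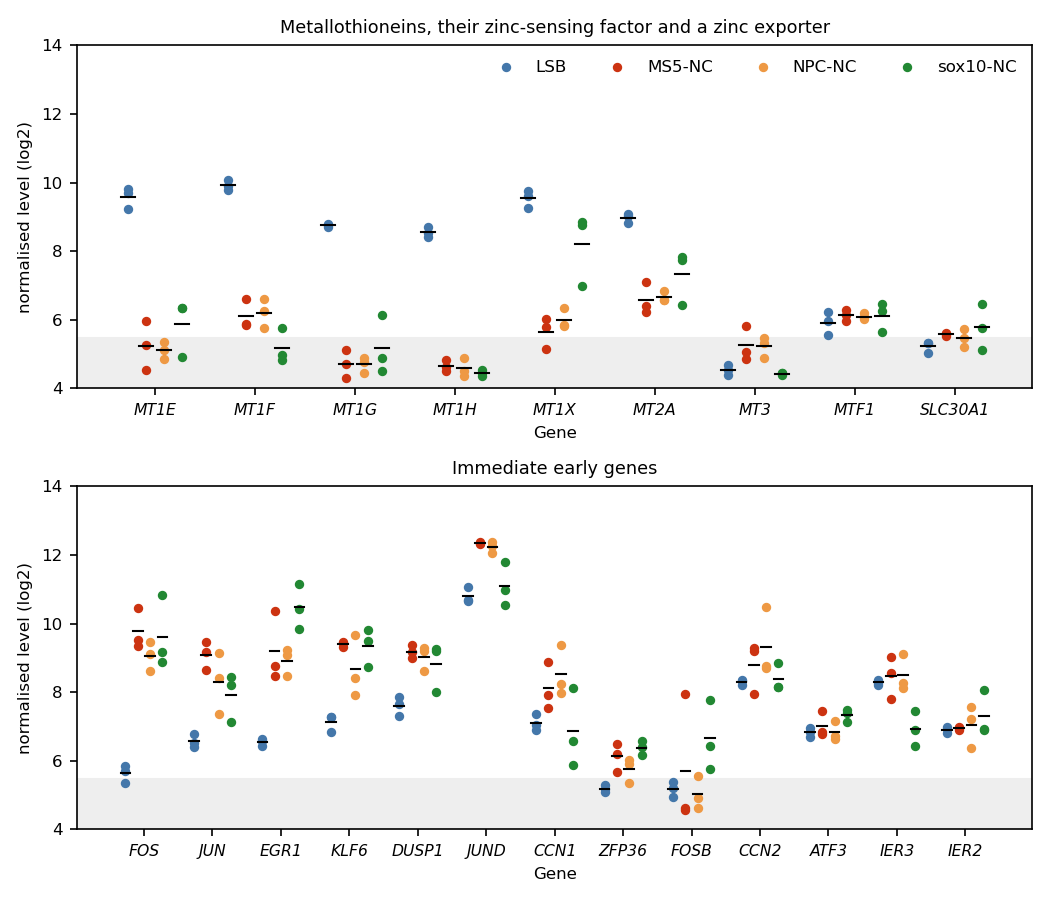
Normalised log2 level of metallothionein-related genes (top) and immediate early genes (bottom) on each array, with points for arrays, black bars for the mean of 3 arrays and colours for the 4 groups. The grey band ends at the highest detection floor of any array. The 6 metallothioneins at the left are higher on all LSB arrays than on all MS5-NC arrays, and FOS, JUN, EGR1, KLF6, DUSP1 and JUND are lower.

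Calls in the Wnt, BMP, FGF and retinoid lists made up 11.8% to 27.3% of measured members, around the 20.9% of all genes. The Wnt list had 3 of 17 measured members called higher and 1 lower, with LEF1, the nuclear partner of beta-catenin, at 1.38 ± 0.24. Its lower gene was FZD5, a Wnt receptor of the eye and forebrain, at least 2.80-fold lower. Neither LEF1 nor FZD5 was called without background correction, and median scaling gave 1 member higher and 2 lower. In the BMP and TGF-beta list 2 of 15 were called higher and 1 lower, ID2, which was lost on leaving out any 1 array other than MS5-NC replicate 2, and without background correction. BAMBI, a decoy receptor, read 6.25, 5.94 and 6.59 in LSB and 7.05, 8.63 and 8.43 in MS5-NC, with MS5-NC replicate 1 the lowest of its group. Of 17 measured FGF ligands and feedback genes 1 was called higher, the receptor inhibitor IL17RD, and 1 lower, FGF8, and the median of 0.16 turned to -0.02 under median scaling. IL17RD stood at 1.10 ± 0.29, but at -0.05 with its probes averaged, and it was no longer called without LSB replicate 2, LSB replicate 3 or MS5-NC replicate 2 (0.97, 0.96 and 0.96). Retinoid genes numbered 2 higher and 1 lower, ALDH1A3, of 11, with none lower without MS5-NC replicate 2 or 3 or without background correction, and 2 lower without LSB replicate 3 or MS5-NC replicate 1. RDH10, which makes retinal, read 4.51, 5.08 and 5.49 in LSB and 7.32, 7.29 and 7.88 in MS5-NC, and RARA, a retinoic acid receptor, rose by 1.77 ± 0.22.

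Among 11 measured imprinted genes 4 were called higher and 2 lower, with a median of 0.25 that turned to -0.25 under median scaling. The lower calls, MEG3 and MEST, were both lost without MS5-NC replicate 3 (-0.90 and -0.95) or without background correction, and MEST also without MS5-NC replicate 2 (-0.96). CDKN1C, an imprinted inhibitor of cyclin-dependent kinases, read 7.89, 7.35 and 7.48 in LSB and 10.30, 9.62 and 9.40 in MS5-NC, and PEG10, a retrotransposon-derived gene, rose by 1.95 ± 0.25. MAGEL2, of the chromosome 15 imprinted cluster, rose by 1.81 ± 0.26. Of 12 measured genes of a list of cyclins and cell cycle inhibitors 4 were called higher and none lower. GADD45G, an inducer of growth arrest, read 4.77, 4.47 and 5.21 in LSB and 8.04, 7.72 and 7.88 in MS5-NC, a difference of 3.06 ± 0.27, and CDKN2D, an inhibitor kept in neurons, rose by 2.76 ± 0.46.

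After quantile normalisation, proliferation genes were called lower at about the share of all genes, but not under median scaling. Of 25 measured genes of the cell cycle and DNA replication none was called higher and 2 lower (8.0%, against 7.85% of all genes). Their median was -0.59, against 0.00 over all genes. Under median scaling 14 of the 25 were called lower, where 1977 of all 11280 genes were. The 2 lower without that scaling were CCNE1 and E2F1, drivers of S phase entry, at -1.18 ± 0.25 and -1.09 ± 0.23. Neither kept its call without background correction. CCNE1 was just under 2-fold without MS5-NC replicate 2, and E2F1 was lost without LSB replicate 1 or MS5-NC replicate 3 (-0.94 and -0.93).

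Metabolic lists were mixed. Of 14 measured cholesterol synthesis genes 5 were called higher and none lower (median 0.87), and 3 under median scaling. DHCR7, the last enzyme of the pathway, read 6.80, 6.79 and 7.28 in LSB and 9.21, 9.22 and 8.66 in MS5-NC, a difference of 2.07 ± 0.27 (adjusted p = 1.53e-05). LSS, which closes the sterol rings, rose by 1.68 ± 0.28. In the hypoxia and glycolysis list 6 of 19 measured members were called higher and 2 lower, which is 42.1% called against 20.9% of all genes. The median of 0.17 turned to -0.21 under median scaling. ENO2, the enolase of neurons, read 8.77, 8.43 and 9.15 in LSB and 10.88, 11.01 and 10.80 in MS5-NC, and ALDOC, the brain aldolase, rose by 2.19 ± 0.37. SLC2A3, a glucose transporter, read 11.90, 12.36 and 12.20 in LSB and 10.88, 10.89 and 10.15 in MS5-NC, a difference of -1.51 ± 0.28. The other called members were VEGFA, NDRG1, HK1 and ALDOA, all higher, and ANKRD37, lower. HK1 was not called under median scaling or with probes averaged, and ANKRD37 was lost without LSB replicate 3 (limma adjusted p = 0.064) or MS5-NC replicate 3 (limma adjusted p = 0.0527), and without background correction. Among interferon-linked genes 2 of 12 (16.7%) were called lower and none higher, against 7.85% lower over all genes. They were BST2, a virus-tethering protein, at -3.20 ± 0.53, or -3.85 without MS5-NC replicate 1, and IFITM1, an antiviral membrane protein, at -1.76 ± 0.33.

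Few markers of blood, vessels or other germ layers were measurable. Of 10 endothelial markers 3 were tested, and PECAM1, CDH5 and KDR were detected on no array. TEK, an angiopoietin receptor, fell at -1.80 ± 0.30, and CLDN5, a tight junction protein, was detected in MS5-NC only of the pair, was called at the 2-fold limit, and was lost without LSB replicate 3, MS5-NC replicate 1 or MS5-NC replicate 3 (0.93, 0.89 and 0.97). Of 10 blood markers 2 were tested and neither was called, and PTPRC was detected on no array. The one melanocyte gene called, PMEL, a melanosome fibre protein, read 10.39, 10.67 and 10.37 in LSB and 8.88, 7.67 and 7.69 in MS5-NC, lower in MS5-NC by a difference of -2.39 ± 0.35. Among 28 HOX genes, the factors of the hindbrain and trunk, 2 were tested. HOXB2 was detected on the 3 MS5-NC arrays alone, at 5.37, 5.66 and 5.70, at least 1.28-fold above LSB, and with any 1 of those arrays left out it was no longer tested.

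MS5-NC could be set apart from NPC-NC, the feeder-free group with the same gate, by few genes. Only 9 of 11280 genes (0.0798%) were called between them, and 7 of these were also called against LSB. GNRH1 was the clearest, with 8.08 ± 0.26 in NPC-NC against 11.01 ± 0.40 in MS5-NC (SD, n = 3), a difference of 2.93 ± 0.27 (adjusted p = 2.54e-05). STIM2, a calcium sensor of the endoplasmic reticulum, read 6.61, 6.52 and 6.72 in LSB and 8.10, 8.68 and 8.58 in MS5-NC, and differed from NPC-NC by 1.83 ± 0.25, but a second probe gave -0.20 against LSB. DOHH, which hydroxylates deoxyhypusine, differed by 1.91 ± 0.32, MIER2, a chromatin protein, by 1.49 ± 0.26, and PPFIA2, a synaptic liprin, by 1.27 ± 0.23. PPFIA2 passed the detection filter only through MS5-NC, and with any 1 of those arrays left out it was no longer tested. Its call against LSB was lost without background correction and with an offset of 50. EFNA1, an ephrin, and ANKRD1, a target of YAP in strained cells, were lower in MS5-NC than in NPC-NC by differences of -1.56 ± 0.28 and -1.79 ± 0.27. The count ran from 3 to 36 when 1 array was left out, with 36 without NPC-NC replicate 1, 20 without MS5-NC replicate 1, 5 without MS5-NC replicate 2, and 3 without MS5-NC replicate 3, NPC-NC replicate 2 or NPC-NC replicate 3.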

How the data were processed

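RNA of 12 samples was hybridised to Illumina HT-12 arrays after Trizol extraction and labelling as biotinylated cRNA, per the labels' protocols. The authors deposited 1 table of probe intensity values, on a linear scale with no normalisation per the file headers, with a detection p-value and a bead number per probe and array, and GenomeStudio is named in the submitters' processing notes. Standard errors over beads fill another 12 columns, which were left aside. A second set of deposited values, the authors' series matrix of processed intensity, served as an alternative, and its normalisation is not given in the sources used here.

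Probe intensity was background-corrected by normexp from the detection p-values, given an offset of 16, quantile-normalised and taken to log2 (neqc, limma 3.58.1, R 4.3.3). Probes with a detection p below 0.01 on at least 3 of 12 arrays and 1 gene symbol were kept, and a gene took its probe with the highest mean, which left 11280 genes. One limma model (lmFit, eBayes) of the 4 groups gave all differences, with Benjamini-Hochberg adjustment over all genes. It was tested on simulated data. A summed level is the sum over a list's members of the normalised intensity less the offset. Array numbers limit the precision.

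The genes and lists were chosen with earlier results of these data known. Genes were named as the 15 largest changes each way among genes detected on all 6 arrays without overlap, up to 12 each way with 1 group undetected, up to 4 called members of a list each way, the markers that define the labels, up to 5 each way called against both LSB and NPC-NC, and called metallothionein and immediate early genes. MT3, MTF1, SLC30A1, CCN1, ATF3, IER2, VEGFA, ALDOA, COL1A1, COL1A2, PDGFRB, DPPA4, DNMT3B and SALL4 were named after their values were seen. Alternatives were no background correction, an offset of 50, median scaling, the series matrix values, other detection filters, averaged probes, other fits and each array left out. Same-numbered LSB and MS5-NC arrays did not deviate together (correlations 0.01, -0.03 and -0.01), so the numbers do not pair them. Motifs were searched in RefSeq promoters of GRCh38.p14.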

Additional observations from a re-analysis of the deposited data

How the results depend on the processing

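Without background correction 709 genes were called higher and 279 lower in MS5-NC than in LSB, 3 differed from NPC-NC and 834 from sox10-NC, and the folds of the named genes were a median 0.564 of those reported, with 156 of 193 still called. An offset of 50 gave 461 lower, and 1200 against sox10-NC. Median scaling gave 1977 lower, and 15 against NPC-NC. The 9 calls against NPC-NC became 2 with the series matrix values, 4 without the detection filter, 4 with only the arrays compared, 4 when tested against a 1.2-fold change, and 22 with array weights. The IL17RD log2 change turned from 1.10 to -0.0541 with probes averaged. The causes of these shifts were not tested. Leaving out 1 array gave 1385 to 1544 higher and 803 to 995 lower than LSB, 1878 to 2086 against sox10-NC, and 3 to 36 against NPC-NC. With the replicate number as a block, 2359 genes were called against LSB, 2355 of them shared, though the labels do not say that a number is a shared batch. Signal over background limits the genes below detection, for which a fold is a lower bound.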
